A study of Rattus norvegicus with 8 samples.

Results

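Cytochromes P450 of families 1 to 3 are the enzymes of the hepatocyte's endoplasmic reticulum that oxidise drugs, steroids and many dietary compounds. They draw their electrons from NADPH through P450 reductase, the product of Por, with cytochrome b5 as a second donor for some reactions. In rat liver several of them differ between the sexes, because the pulsed growth hormone of males and the steadier growth hormone of females act on them through STAT5b and its partners, and others are induced by foreign compounds through the receptors AhR, CAR and PXR.

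The members described here were all genes whose probe set carried a single symbol made of Cyp1, Cyp2 or Cyp3 and a subfamily letter. There were 32 such genes among the 14218 genes with a single symbol. A gene counted as measured when a probe set of it spanned at least 0.05 (log2) over the 8 arrays, and 23 of the 32 members did so, against 2808 of all 14218 genes. The livers came from male Wistar rats 8 weeks old, 4 fed the HP diet with 1.2% phosphorus and 4 fed the control diet with 0.3% phosphorus, both AIN-93G diets given for 24 days after 7 days on the control diet. The diets were started with 5 rats each, and 1 array stood for each of 4 of them. Every value is a log2 expression level of 1 probe set, so that levels of different genes are not set against each other. Whole liver was used, so fewer cells of a type and less RNA per cell cannot be told apart.

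Each of the 8 arrays had a median of 6.65, but most probe sets were almost constant, so this median could hardly differ. Over measured probe sets the medians were 8.76 to 8.79 in HP rats and 8.77 to 8.81 in control rats. Across the 4155 measured probe sets, which are not independent replicates, Pearson's r of 2 arrays was 0.968 at the lowest and 0.992 at the highest. Hepatocyte markers were plainly present: of the 9 with a probe set, 6 were almost constant at levels of 13.61 to 14.53. The other 3 averaged 12.97 to 13.06 over them in HP rats against 13.08 to 13.17 in control rats. Of those 3, Cps1, a urea cycle gene, was called lower at -0.27, with every HP rat below every control rat. Apoa1 and Fgb differed by only 0.02 and 0.0027. All 5 cholangiocyte markers with a probe set were almost constant at 6.15 to 7.30. The macrophage list had lower HP means in 9 of 9 measured genes, with 1 called lower, Cd5l, a protein that macrophages secrete, and its mean level was 8.85 to 9.05 in HP rats and 8.88 to 9.21 in control rats. The sinusoidal endothelial list had higher HP means in 5 of 5, with Kdr, a VEGF receptor, and Stab2, a scavenger receptor, called higher, at a mean of 9.70 to 9.82 in HP rats and 9.57 to 9.70 in control rats. The stellate cell and fibroblast list had higher HP means in 6 of 7 measured genes and 0 calls, at 8.20 to 8.30 in HP rats and 8.09 to 8.28 in control rats. The only measured blood marker, the globin gene Hbb, was called higher by 0.24 (FDR 0.0294), at 11.38 to 11.61 in HP rats and 11.04 to 11.64 in control rats. Over all 4155 measured probe sets, 1809 had higher and 2346 had lower HP means, and rank products called 8.5% higher and 12.1% lower. The part of the cell marker shifts in the P450 values was not tested.

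Taken by diet, rank products called Cyp2c12 and Cyp3a9 lower in HP rats and no P450 of these families higher. Por, the electron donor that all of them use, was called lower in HP rats on both of its probe sets. Rank products, which ranks the probe sets in each of the 16 HP minus control differences and takes an FDR under 0.05 from 1000 permutations of the values within each array, called 2 of the 23 measured members lower (8.7%). Over all measured probe sets the same rule called 12.1% lower, so the share among these P450s was not above the background. It called 0 members higher, where the background was 8.5%. With only measured probe sets ranked, rank products called 26 higher and 16 lower, against 353 and 505 with all probe sets ranked. In that ranking Cyp2c12 kept its call (FDR 0.0248), while Cyp3a9 (FDR 0.124) and Por (FDR 0.137) lost theirs. Rank products makes no use of the spread between rats of a diet. The limma linear model, which does, called 0 members at an adjusted p under 0.05 in either direction, and its background was also 0% of 4155 probe sets. At an unadjusted limma p under 0.05, 1 member was higher, Cyp2d3 (background 5.37%), and 3 were lower, Cyp2a2, Cyp2c12 and Cyp3a9 (background 7.29%).

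Across the 23 measured members the HP minus control difference had a median of -0.03 (log2), against -0.02 over all measured probe sets. It ran from -0.68 in Cyp2c12 to 0.21 in Cyp2j4, with 10 members above 0 and 13 below. The median size of the difference, sign aside, was 0.08 for the members and 0.09 for all measured probe sets. In 1 member, Cyp2d3, every HP rat lay above every control rat (4.35% of members, background 3.1%), and in 0 members did every HP rat lie below every control rat (background 4.07%).

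**Figure D1:**
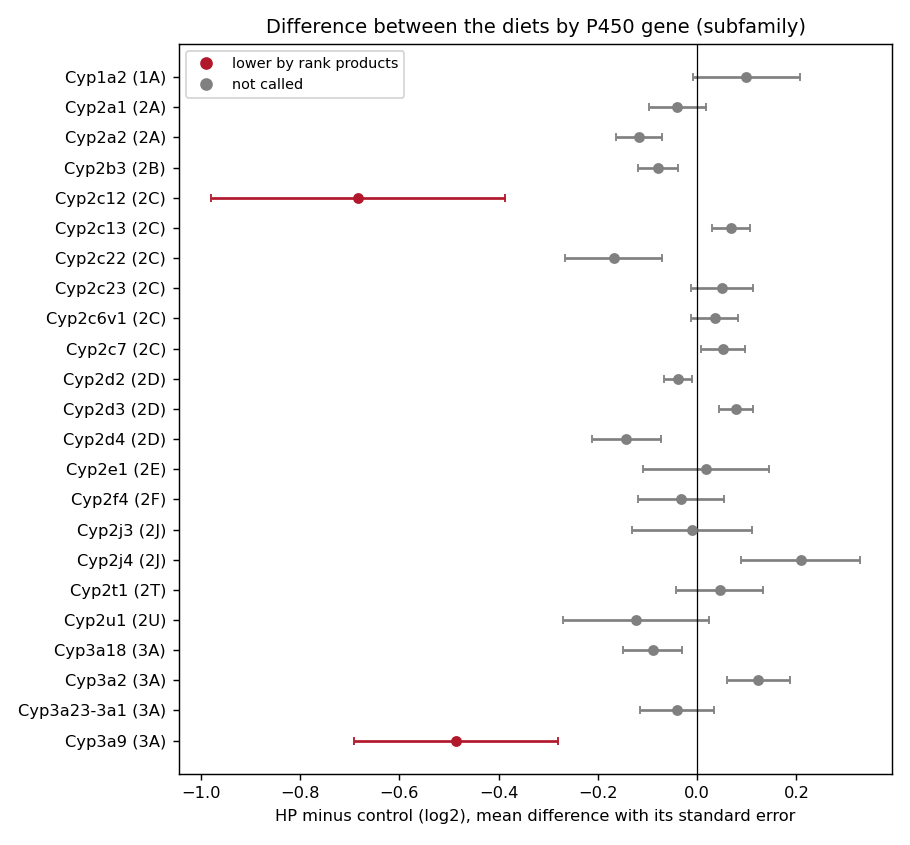
The HP minus control difference in log2 expression (horizontal axis) of each of the 23 measured P450 genes, ordered by subfamily, with points for the mean difference and bars for its standard error from the limma model (4 rats per diet). Red points are the genes called lower by rank products, Cyp2c12 at -0.68 and Cyp3a9 at -0.49; no other gene lies below -0.17 or above 0.21.

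Subfamily 2C is the largest group, with 7 genes, of which 6 were measured. Cyp2c12, the steroid sulfate 15β-hydroxylase that marks female rat liver, was measured at 10.19, 10.49, 9.51 and 10.32 in HP rats 1 to 4, against 10.64, 11.32, 11.21 and 10.07 in control rats 1 to 4. Control rat 4 lay below 3 of the 4 HP rats, and control rats 2 and 3 stood above all others. Means were 10.13 ± 0.43 in HP rats and 10.81 ± 0.57 in control rats (SD, n = 4 each), a fold of 0.623. Cyp2c12 fell by 0.68 (log2, SE 0.30) by rank products, at an FDR of 0.000636, and the adjusted p from limma was 0.388. Leaving out 1 rat at a time gave differences from -0.93 (control rat 4 left out) to -0.48 (HP rat 3 left out), and rank products called Cyp2c12 lower each time. All rats here were male, and how much RNA of other 2C genes binds this probe set was not tested.

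The other measured 2C genes moved far less. Cyp2c7, a retinoic acid hydroxylase that is also higher in female rats, lay at 13.45 to 13.53 in HP rats and 13.34 to 13.53 in control rats, a difference of 0.05 (SE 0.04). Cyp2c13, a male form, lay at 13.08 to 13.16 in HP rats and 12.99 to 13.13 in control rats, a difference of 0.07 (SE 0.04). Cyp2c22 was measured at 12.82, 12.83, 12.68 and 12.60 in HP rats, against 12.60, 13.02, 13.00 and 12.99 in control rats. Its mean was lower in HP rats by the second largest margin of the subfamily, -0.17 (SE 0.10), but control rat 1 was as low as the lowest HP rat. Rank products called Cyp2c22 lower without control rat 1 (-0.27, FDR 0.0475) and without HP rat 1 (-0.20, FDR 0.0499). Cyp2c6v1, a phenobarbital-inducible form, and Cyp2c23, an arachidonic acid epoxygenase, differed by 0.03 and 0.05. Adjusted p from limma was 0.467 or more for each of these 5 genes. Cyp2c11, the main male form, was not measurable: its single probe set stayed at 13.57 with a span of 0.000163.

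Cyp2c12, Cyp2c7 and Cyp2c13 lie on rat chromosome 1. The stretches before their starts are shown because all 3 genes carry the same short motif there. Only Cyp2c12 of the 3 was called by rank products, and Cyp2c7 and Cyp2c13 differed by 0.05 and 0.07. The motif ATTGAT is the core bound by HNF6, the product of Onecut1, and it is in capitals (as ATCAAT where it lies on the other strand). The stretches, from RefSeq on GRCr8, run 5′ to 3′ from base 250 to base 51 before the annotated start. Their positions are chr1:248677085-248677284 on the minus strand for Cyp2c12, chr1:247966144-247966343 on the plus strand for Cyp2c7 and chr1:248787239-248787438 on the minus strand for Cyp2c13.
Cyp2c12: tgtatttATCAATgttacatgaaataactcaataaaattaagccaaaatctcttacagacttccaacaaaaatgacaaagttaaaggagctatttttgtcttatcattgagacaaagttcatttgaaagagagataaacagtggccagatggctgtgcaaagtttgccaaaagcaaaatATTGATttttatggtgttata
Cyp2c7: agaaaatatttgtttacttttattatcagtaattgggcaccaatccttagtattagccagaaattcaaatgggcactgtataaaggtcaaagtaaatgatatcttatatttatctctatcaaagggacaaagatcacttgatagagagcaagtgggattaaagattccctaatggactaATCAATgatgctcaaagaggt
Cyp2c13: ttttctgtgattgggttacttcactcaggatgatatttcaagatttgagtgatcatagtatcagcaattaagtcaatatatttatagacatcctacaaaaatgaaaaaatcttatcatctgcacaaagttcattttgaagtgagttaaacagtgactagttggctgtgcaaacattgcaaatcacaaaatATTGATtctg

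The match nearest the start lay at bases 71 to 66 before it in Cyp2c12, on the gene's strand, and in Cyp2c7, on the other strand, and at bases 60 to 55 in Cyp2c13, on the gene's strand. Cyp2c12 held another at bases 243 to 238. Both strands were searched over the 250 bases before each start. ATTGAT was present in 4 of the 21 measured members with a sequence (19%), the fourth being Cyp1a2, and in 7.1% of all 33469 rat promoters of that length. Cyp2c12, Cyp2c7 and Cyp2c13 are related genes of 1 subfamily, so their matches are not independent, and the difference in share was not tested. The STAT motif TTCNNNGAA was present in 2 members, Cyp2j4 and Cyp2t1 (9.52%), and in 7.67% of all promoters. The motif TTATGTAA of Dbp, Hlf and Tef was in 0 members and in 0.828% of all promoters. A match here is a run of letters and not a measured site.

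Subfamily 3A, the steroid and drug hydroxylases under PXR, had 4 genes and all were measured. Cyp3a9, a form that is higher in female rats, was measured at 9.72, 9.10, 9.60 and 9.83 in HP rats, against 10.11, 10.24, 10.34 and 9.52 in control rats. Control rats 1 to 3 lay above every HP rat, and control rat 4 lay below all HP rats but rat 2. Means were 9.56 ± 0.32 in HP rats and 10.05 ± 0.37 in control rats (SD, n = 4 each), a fold of 0.714. Cyp3a9 fell by 0.49 (log2, SE 0.21) by rank products, at an FDR of 0.00282, and the adjusted p from limma was 0.384. The call was lost without control rat 2, where the difference was -0.42, and without control rat 3, where it was -0.39. The call was also lost when only measured probe sets were ranked (FDR 0.124).

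The male forms Cyp3a2 and Cyp3a18 went opposite ways by small amounts. Cyp3a2 was measured at 12.90, 12.96, 12.92 and 12.94 in HP rats, against 12.68, 12.70, 12.88 and 12.97 in control rats, a difference of 0.12 (SE 0.06). The HP rats sat close together inside the upper part of the control range, and the control rats fell into a lower and a higher pair. Cyp3a18 had means of 12.05 ± 0.09 in HP rats and 12.14 ± 0.09 in control rats (SD, n = 4 each). Cyp3a23-3a1, the dexamethasone-inducible form, lay at 12.69 to 12.80 in HP rats and 12.62 to 13.01 in control rats. Adjusted p from limma was 0.442 or more for these 3.

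Subfamily 2D, the debrisoquine hydroxylase group, had 3 genes and all were measured, with narrow ranges. Cyp2d3 was measured at 12.53, 12.59, 12.56 and 12.54 in HP rats, against 12.52, 12.49, 12.42 and 12.47 in control rats. Every HP rat was above every control rat, by a margin of 0.08 between the means (SE 0.03), with an adjusted p from limma of 0.394 and a rank products FDR of 0.0784. After quantile normalization the diets overlapped in Cyp2d3 too. Cyp2d2 went the other way within an even smaller range, with means of 12.72 ± 0.02 in HP rats and 12.76 ± 0.02 in control rats (SD, n = 4 each), a difference of -0.04. Cyp2d4 had 2 measured probe sets. The brighter gave 9.09, 8.98, 8.95 and 8.93 in HP rats, against 9.05, 9.26, 9.17 and 9.04 in control rats, a difference of -0.14 with a rank products FDR of 0.0833. The dimmer gave 7.89, 7.63, 7.63 and 7.66 in HP rats, against 7.87, 8.18, 8.12 and 7.81 in control rats, a difference of -0.29 with an FDR of 0.021. HP rat 1 was high on both probe sets, at or above the lowest control rats, and the other 3 HP rats were below all control rats. Rank products called Cyp2d4 lower without HP rat 1 (-0.18, FDR 0.0387) and with the mean of both probe sets (FDR 0.032). Cyp2d4 was taken up here after its values were seen. Genes of 1 subfamily have closely related sequences, and how much RNA of 1 gene binds the probes of another was not tested.

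Of the 3 genes of subfamily 2A, the testosterone hydroxylases Cyp2a1 and Cyp2a2 were measured. Cyp2a2 was measured at 12.33, 12.28, 12.31 and 12.47 in HP rats, against 12.46, 12.43, 12.50 and 12.46 in control rats. HP rats 1 to 3 were below all control rats, and HP rat 4 was among them. The difference was -0.12 (SE 0.05), with the lowest adjusted p from limma among the members, 0.366. Without HP rat 4 rank products called Cyp2a2 lower (-0.16, FDR 0.0494). Cyp2a1 differed by -0.04. In subfamily 2B, Cyp2b3, a constitutive form, had means of 12.74 ± 0.06 in HP rats and 12.82 ± 0.04 in control rats (SD, n = 4 each), while Cyp2b12 and Cyp2b21 were almost constant. Probe sets of the phenobarbital-inducible Cyp2b1 and Cyp2b2 were not analysed here.

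Subfamily 1A holds the AhR-inducible genes. Cyp1a2, which oxidises caffeine and aromatic amines, was measured at 10.84, 10.42, 10.61 and 10.57 in HP rats, against 10.36, 10.61, 10.71 and 10.37 in control rats. The diets overlapped over most of their range, and HP rat 1 was the highest of all. The difference was 0.10 (SE 0.11), with an adjusted p from limma of 0.706. Cyp1a1 and Cyp1b1 were almost constant at 6.37 and 6.83.

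The remaining subfamilies held 1 or 2 measured genes each. Cyp2e1, the ethanol- and acetone-oxidising P450 of pericentral hepatocytes, was measured at 12.86, 13.03, 13.22 and 13.28 in HP rats, against 13.14, 12.80, 13.01 and 13.37 in control rats. The diets covered the same range, and the difference of 0.02 (SE 0.13) changed sign without HP rat 3, HP rat 4, control rat 2 or control rat 3, with values from -0.08 to -0.0046. Cyp2j3, a fatty acid epoxygenase, was measured at 11.00, 10.88, 11.00 and 10.81 in HP rats, against 11.29, 10.97, 10.76 and 10.70 in control rats. Control rats were on both sides of the HP rats, and the difference was -0.01 (SE 0.12). Its second probe set gave -0.10 (SE 0.21). Cyp2j4 had HP values of 9.71 to 9.96 and control values of 9.41 to 9.97, the largest positive difference of the members at 0.21 (SE 0.12). Without control rat 4, the highest control rat, rank products called Cyp2j4 and Cyp3a2 higher, at FDRs of 0.0115 and 0.0246.

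Cyp2u1, a fatty acid hydroxylase, was measured at 8.46, 8.09, 8.23 and 8.65 in HP rats, against 8.21, 8.62, 8.71 and 8.39 in control rats. Each diet had high and low rats, and the difference was -0.12 (SE 0.15). Cyp2f4, which oxidises naphthalene, had a difference of -0.03 (SE 0.09). Cyp2t1 had a difference of 0.05 (SE 0.09). Adjusted p from limma was 0.473 or more in all genes of subfamilies 2E, 2F, 2J, 2T and 2U.

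Por carried 2 measured probe sets. The brighter gave 8.40, 8.84, 9.02 and 8.55 in HP rats, against 8.96, 9.03, 9.15 and 9.80 in control rats. Control rat 4 stood well above the other control rats, and HP rat 3 was above control rat 1. Means were 8.70 ± 0.28 in HP rats and 9.23 ± 0.38 in control rats (SD, n = 4 each), and Por fell by 0.53 (log2, SE 0.20), a fold of 0.692, at a rank products FDR of 0.00225, while the adjusted p from limma was 0.356. Without control rat 4 the difference was -0.34 and rank products no longer called it.

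The dimmer Por probe set gave 6.77, 6.93, 7.13 and 6.77 in HP rats, against 7.29, 7.27, 7.31 and 7.64 in control rats. Here every HP rat was below every control rat. Means were 6.90 ± 0.17 in HP rats and 7.38 ± 0.18 in control rats (SD, n = 4 each), a fall of 0.48 (log2, SE 0.12) at a rank products FDR of 0.00216, with an adjusted p from limma of 0.225.

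**Figure D2:**
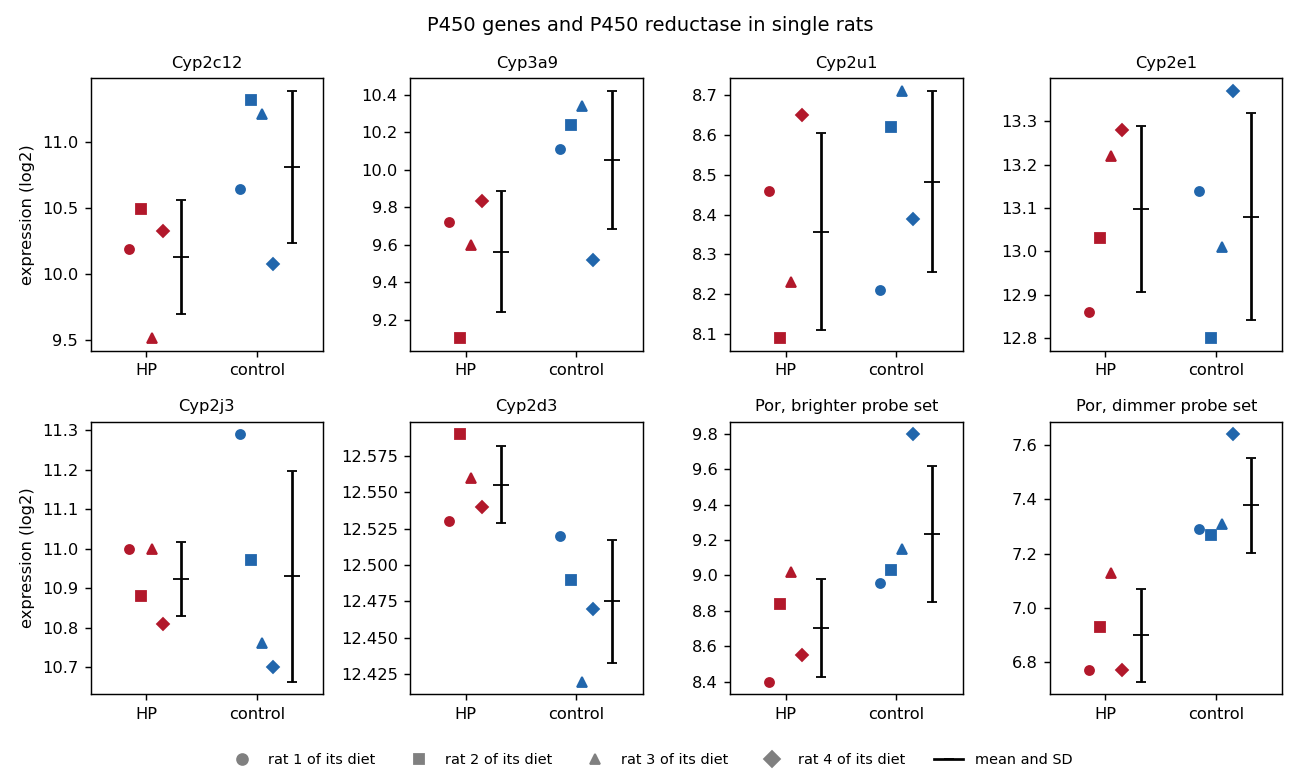
Log2 expression (vertical axes, each panel on its own scale) of 6 P450 genes and both probe sets of Por in the HP rats (red, left) and control rats (blue, right), with a marker shape for each rat of its diet and black bars for the mean and SD of 4 rats. Cyp2d3 and the dimmer Por probe set separate the diets, while control rat 4 falls among the HP rats in Cyp2c12 and Cyp3a9 and is the highest rat on both Por probe sets.

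The spread between rats of a diet was not wide for the P450s as a whole. The pooled within-diet SD had a median of 0.1002 (log2) over the 23 members and 0.131 over all measured probe sets, and 8 of the 23 were above 0.131. The 5 members with the widest spread were Cyp2c12 at 0.506, Cyp3a9 at 0.346, Cyp2u1 at 0.238, Cyp2e1 at 0.216 and Cyp2j3 at 0.199. Of all measured probe sets, 97.7% had a smaller SD than Cyp2c12 and 93.3% a smaller SD than Cyp3a9. The narrowest was Cyp2d2 at 0.0158.

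Spread went with level on this array, so the members were also read against probe sets of like level. The 13 members with a mean of at least 12 had a median SD of 0.0705, against 0.0740 for the 195 measured probe sets at that level, and 6 of the 13 were above it. The 10 members with a mean under 12 had a median SD of 0.184, against 0.119 for the 2764 probe sets with means from 8 to 12, and 7 of the 10 were above it. Of the 13 brighter members 0 were called by rank products, and both called members were among the 10 dimmer ones. The background at those levels was 4.1% called higher and 9.23% called lower among the 195 probe sets, and 7.53% higher and 10.6% lower among the 2764.

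**Figure D3:**
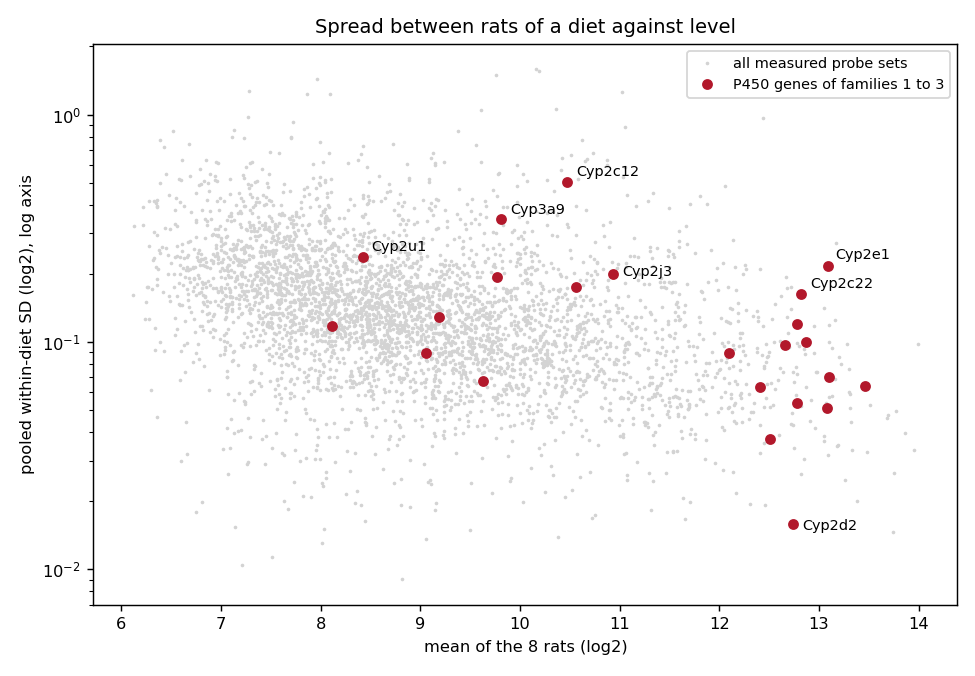
Pooled within-diet SD in log2 (vertical log axis) against the mean of the 8 rats in log2 (horizontal axis) for the 23 measured P450 genes (red) and all 4155 measured probe sets (grey). Cyp2c12 and Cyp3a9 lie in the upper part of the cloud at their level, and Cyp2d2 lies at its lower edge.

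No single rat was the extreme of its diet for most members. Among HP rats, rat 4 was the highest in 9 of 23 members (39.1%), against 27.9% of all measured probe sets, and rat 3 in 2 (8.70%), against 21.0%. Among control rats, rat 1 was the lowest in 11 of 23 (47.8%), against 30.8% of all measured probe sets, and rat 3 was the highest in 9 (39.1%), against 26.5%. Members share rats, so these counts are not independent.

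**Figure D4:**
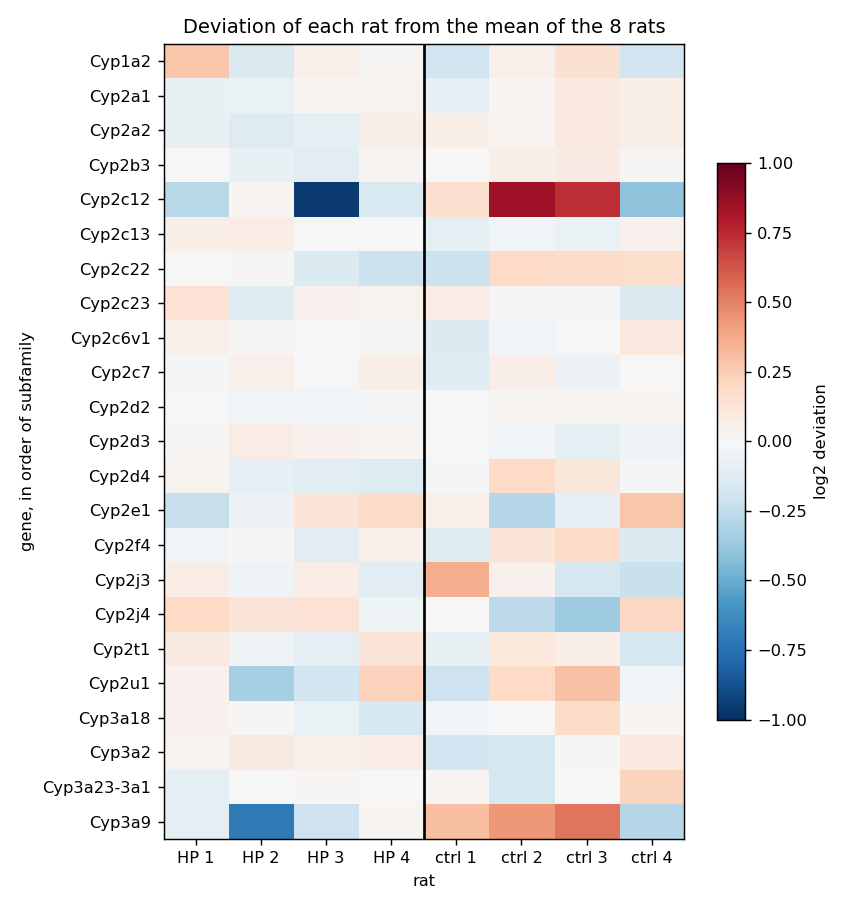
Deviation in log2 expression of each rat from the mean of all 8 rats (colour, red above and blue below) for the 23 measured P450 genes in rows, with HP rats 1 to 4 left of the line and control rats 1 to 4 right of it. Cyp2c12 and Cyp3a9 show the strongest colours, with control rats 2 and 3 high in both, HP rat 3 low in Cyp2c12 and HP rat 2 low in Cyp3a9.

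Grouped by how they are known to be controlled, the members called lower were both female-predominant forms. Of the 4 genes on the list of female-predominant P450s, all were measured, 2 were called lower and 0 higher (background 12.1% and 8.5%). The 2 are Cyp2c12 and Cyp3a9 again, and the list was chosen with earlier results of these data known. The other 2, Cyp2c7 and Cyp2a1, differed by 0.05 and -0.04. The median difference of the 4, -0.26 (log2), thus lies between the called pair and the uncalled pair and adds nothing to the 2 calls. Of the 5 genes on the list of male-predominant P450s, 4 were measured, 0 were called, and their median difference was -0.01. Of the 3 AhR-inducible genes 1 was measured. Of the 10 listed CAR- and PXR-inducible genes only 4 had a probe set used here. All 4 were measured, with a median of -0.0032 and 1, Cyp3a9, called lower.

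Of the 7 listed electron donors and related heme-binding proteins, 6 had a probe set and all 6 were measured, Por included. Pgrmc2, a heme-binding membrane protein related to cytochrome b5, was measured at 10.40, 10.31, 10.34 and 10.39 in HP rats, against 10.19, 10.21, 10.13 and 9.89 in control rats. Every HP rat was above every control rat, and Pgrmc2 rose by 0.26 (log2, SE 0.07) by rank products, at an FDR of 0.0117 and an adjusted p from limma of 0.286. The call was lost without any one of the HP rats, with differences of 0.24 to 0.27. Cytochrome b5 itself, Cyb5a, and its reductase Cyb5r3 differed by 0.08 and -0.05 and were not called. Of the genes for heme supply, 5 of 11 with a probe set were measured. Hmox1, which breaks heme down, was called lower at -0.18 (FDR 0.039), a call lost without the dimmest probe sets, and Alas1, the rate-limiting enzyme of heme synthesis, differed by -0.0031.

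The xenobiotic receptors showed 0 calls in either direction among 5 measured genes. Nr1i2, which encodes PXR, differed by -0.13 (SE 0.10) and Nr1i3, which encodes CAR, by 0.02 (SE 0.10). The largest difference was that of Rxrg, a retinoid X receptor, at 0.15 (SE 0.13). Of the 11 measured hepatocyte factors that act on P450 promoters, rank products called 2 higher and 3 lower (background 8.5% and 12.1%). Hnf4a, on the probe set taken here, differed by -0.10 and was not called, whereas the study lists it among the genes raised by the HP diet. Hlf, Tef and Dbp, the PAR bZIP factors that follow the daily clock, fell by 0.39, 0.38 and 0.36 (log2) by rank products, at FDRs of 0.0102, 0.0121 and 0.00571. Dbp was measured at 6.28, 6.38, 7.10 and 7.95 in HP rats, against 6.78, 6.59, 7.37 and 8.43 in control rats. The HP rats were spread over 1.67 and the control rats over 1.84, several times the difference between the diets, and the difference was 0.02 without control rat 4 and -0.70 without HP rat 4.

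Onecut1, which encodes HNF6, had the widest control range of the genes named here. It was measured at 11.45, 11.07, 10.81 and 9.45 in HP rats, against 11.91, 7.90, 8.06 and 10.86 in control rats. Control rats 2 and 3 were far below all other rats. The mean was higher in HP rats by 1.01 (log2, SE 0.92) at a rank products FDR of 0.000684, and the adjusted p from limma was 0.635. The difference was 0.42 without control rat 2, 1.76 without control rat 1 and 1.92 with array weights. Ppargc1a, a coactivator of hepatic fasting genes, was called higher at 0.28 (FDR 0.0279). That difference was 0.13 without HP rat 3 and 0.13 as the mean of its probe sets, and the call was lost in both cases.

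Of the 6 measured genes of the growth hormone signal, rank products called 1 higher and 2 lower (background 8.5% and 12.1%). Socs2, a feedback inhibitor of the growth hormone receptor, was measured at 8.10, 8.01, 7.36 and 7.20 in HP rats, against 7.91, 6.36, 6.35 and 7.01 in control rats. It rose by 0.76 (log2, SE 0.36), at an FDR of 0.000313, and only control rat 1 reached into the HP range. Bcl6, a repressor that opposes STAT5, was measured at 9.05, 8.34, 8.70 and 10.95 in HP rats, against 9.91, 10.49, 10.78 and 8.69 in control rats. It was called lower at -0.71 (SE 0.61), although HP rat 4 was the highest of all rats and control rat 4 lay below HP rats 1 and 3. The difference was -1.27 without HP rat 4, -0.40 without HP rat 2 and -1.23 with array weights. Cish, a STAT5 target, was measured at 7.57, 6.69, 8.16 and 5.91 in HP rats, against 8.76, 6.34, 6.04 and 8.77 in control rats. It was called lower at -0.40 (SE 0.74), and its sign turned without control rat 1 or control rat 4. The receptor Ghr and its target Igf1 differed by -0.04 and -0.09 and were not called. The adjusted p from limma was 0.415 or more for all 6 genes.

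Control rats 2 and 3, which had the highest Cyp2c12 of all rats, also had the highest Bcl6 and the lowest Cish, Socs2 and Onecut1 of the control rats. HP rat 3, with the lowest Cyp2c12, had the highest Cish of the HP rats, and their second lowest Bcl6, Socs2 and Onecut1. HP rat 4, with the highest Bcl6 and the lowest Cish, Socs2 and Onecut1 of its diet, had the second highest Cyp2c12 of the HP rats. HP rat 2 followed these control rats only in part. It had the highest Cyp2c12 and second lowest Cish of the HP rats, with the lowest Bcl6 of all 8 rats. Its Socs2 and Onecut1 were the second highest of its diet. These rats were pointed out after their values were seen, and the part of the growth hormone signal in the spread of Cyp2c12 was not tested.

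**Figure D5:**
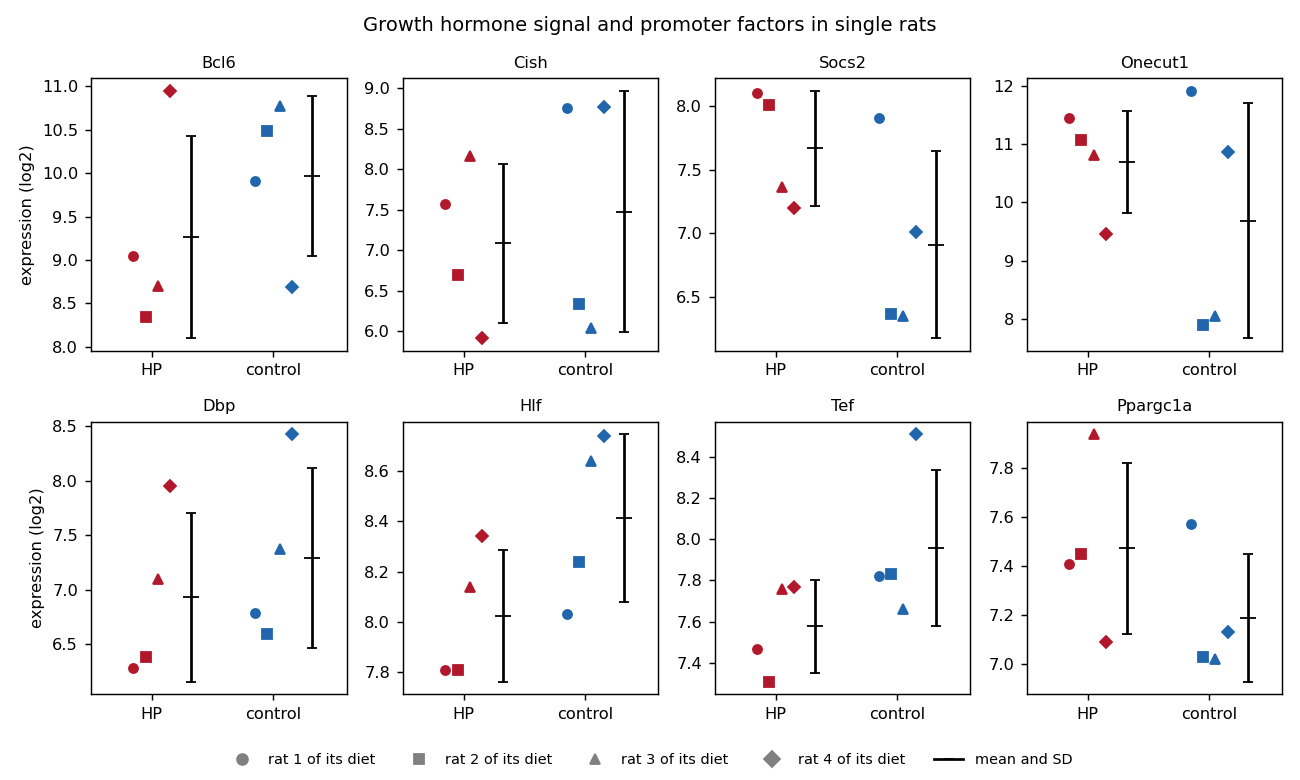
Log2 expression (vertical axes, each panel on its own scale) of 3 growth hormone signal genes, Bcl6, Cish and Socs2, and of 5 factors that act on P450 promoters, in HP rats (red, left) and control rats (blue, right), with a marker shape for each rat of its diet and black bars for the mean and SD of 4 rats. Control rats 2 and 3 are low in Cish, Socs2 and Onecut1, and in Dbp rat 4 of each diet is the highest of its diet.

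Conjugating and hydrolysing enzymes were called in both directions, and drug transporters only as higher. Of the 13 measured conjugating and hydrolysing enzymes, 3 were called higher and 2 lower (background 8.5% and 12.1%), and 0 passed limma. Ephx2, the soluble epoxide hydrolase, and Ugt2b1, a glucuronyl transferase, were called higher at 0.44 and 0.42 (log2), and Sult1c2 at 0.19, a call lost without the dimmest probe sets. The sulfotransferases Sult1e1 and Sult1a1 were the 2 in which every HP rat lay below every control rat (background 4.07%). Sult1e1, the estrogen sulfotransferase, was measured at 12.73, 12.73, 12.84 and 12.93 in HP rats, against 12.99, 13.11, 13.19 and 13.06 in control rats, and fell by 0.28 (log2, SE 0.06) at a rank products FDR of 0.0129 and an adjusted p from limma of 0.202. That call was lost without control rat 2, 3 or 4, with differences of -0.29 to -0.25. Sult1a1, the phenol sulfotransferase, fell by 0.19 (log2, SE 0.05), and its call was lost without any one of the control rats or without the dimmest probe sets.

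Of the 9 measured drug transporters, 2 were called higher and 0 lower (background 8.5% and 12.1%). Abcg2, the efflux pump BCRP, was measured at 8.20, 8.49, 8.23 and 8.17 in HP rats, against 7.69, 7.88, 8.00 and 7.98 in control rats. Every HP rat was above every control rat, and Abcg2 rose by 0.39 (log2, SE 0.10), at a rank products FDR of 0.0022 and an adjusted p from limma of 0.233. Slc22a8, an organic anion transporter, was also without overlap and was called higher at 0.15 (FDR 0.0305), a call lost without the dimmest probe sets and with the mean of its probe sets; without control rat 1 the difference was 0.0959.

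Of 9 measured periportal genes 5 were called lower by rank products (background 12.1%) and 0 passed limma. In 4 of the 9 every HP rat was below every control rat (background 4.07%). These were Sds, Gls2, Ass1 and Cps1, genes of amino acid breakdown and the urea cycle. The study already lists these genes and Hal, the other called gene, as lower on the same arrays. The count is thus not a separate result on the zone. The mean level of the periportal list was 10.54 to 10.63 in HP rats and 10.74 to 10.90 in control rats. The rest of that list, Pck1, Cdh1, Hsd17b13 and its P450 Cyp2f4, differed by -0.07, 0.14, 0.10 and -0.03 and were not called. Of 6 measured pericentral genes, Cyp2e1 and Cyp1a2 included, 1 was called higher and 1 lower (background 8.5% and 12.1%), and 0 passed limma. The diets overlapped, with mean levels of 9.72 to 10.29 in HP rats and 9.86 to 10.58 in control rats. The part of the zones in the P450 values was not tested.

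The 9 members that were almost constant spanned 0.000163 to 0.000691 over the 8 arrays, and no difference between the diets could be measured in them. They were Cyp1a1, Cyp1b1, Cyp2a3, Cyp2b12, Cyp2b21, Cyp2g1, Cyp2j10 and Cyp2s1, at levels of 5.87 to 6.83, and Cyp2c11 at 13.57. The member just inside the limit was Cyp2d2, with a span of 0.0582, and the next were Cyp2d3 and Cyp2c13, each at 0.175.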

How the data were processed

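Liver RNA of 8 rats (4 HP, 4 control) was measured on 1 Affymetrix array each. The deposited values are log2 expression levels: according to the authors, probes were summarised with FARMS, a factor analysis that leaves a probe set without shared probe signal almost constant, and their processing notes name R 2.13.1. For the normalization between arrays the sources used here name no method, and none was added. No background or detection value was used. The table held 31099 probe sets, 57 of them array controls.

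Probe sets were named from the platform annotation where it gave 1 symbol; 20832 had 1, 436 several and 9780 none. The 3 probe sets with several symbols of these families were not used. Per gene, the probe set with the highest mean among those spanning at least 0.05 (log2) was taken.

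Rank products (the method the study names, programmed anew; all probe sets, all 16 HP minus control differences, 1000 permutations within arrays, FDR under 0.05) called 353 probe sets higher and 505 lower. limma 3.58.1 in R 4.3.3, with statmod 1.5.0 (lmFit, eBayes with trend and robust, two-sided, Benjamini-Hochberg), was fitted to the 4155 measured probe sets. Both were tested on simulated data. Other software was numpy 2.4.6, scipy 1.17.1, pandas 2.3.3 and matplotlib 3.10.9 under Python 3.11.15. The number of arrays limits the precision.

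Named are the members called by rank products or without overlap between the diets, the 5 with the widest spread, the member with the highest mean of each subfamily, Por and, of each list of other pathway genes, those called or else the 1 with the largest difference; genes outside this rule are given by value only. The members and lists were chosen with earlier results of these data known. Alternatives were centring on the median of measured probe sets, quantile normalization, leaving out the dimmest 25%, the mean of a gene's probe sets, leaving out each rat, measured probe sets alone (rank products), no span limit or 0.2, plain empirical Bayes, array weights, and the replicate number as a block.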

Additional observations from a re-analysis of the deposited data

Results flagged for a closer look

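Among 84 groups of 4 values (42 genes on 2 diets), 4 held a rat far from the other 3 by Dixon's test, where chance gives about 1 in 20. Cyp2c22 was 12.60 in control rat 1, against 12.99 to 13.02 in the other control rats. Cyp2d2 was 12.74 in HP rat 1, against 12.71 to 12.72 in the other HP rats. Cyp2d2 was also 12.74 in control rat 1, against 12.77 in the other control rats, a gap of a few hundredths of a log2 unit. Cyp3a23-3a1 was 12.69 in HP rat 1, against 12.78 to 12.80 in the other HP rats.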

How the results depend on the processing

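The count of members past the limma threshold was 0 in the main analysis and in each of the 17 alternatives, with a smallest adjusted p over all probe sets of 0.0517 to 0.462, against 0.156. Cyp2c12 was called lower by rank products in each of the 15 alternatives, of which a second random seed, chosen after seeing the data, gave the same counts over all probe sets (353 higher and 505 lower). The number of members called lower was 2, and 3 with the mean of a gene's probe sets (Cyp2d4 added). It was 1 to 4 when 1 rat was left out, and 1 when only measured probe sets were ranked. In that ranking the FDR of Cyp3a9 was 0.124 and that of Por 0.137. Over all probe sets it called 26 higher and 16 lower, against 353 and 505. Most rank products calls thus depended on ranking the almost constant probe sets too. Apart from Por, genes other than members are not given under that ranking. The number called higher was 0, and 0 to 2 when 1 rat was left out, with 2 without control rat 4. Same-numbered rats had correlated deviations for number 1 (r = 0.479) but not for numbers 2 to 4 (r = 0.031, -0.123 and -0.197), and the labels give the numbers no shared source, so the samples were not taken as paired. With the replicate block, rank products called 2 members lower and 1 higher, Cyp2j4. The number of members without overlap was 1, 0 after quantile normalization and 1 to 5 when 1 rat was left out, with 3 without HP rat 1, 3 without control rat 1 and 5 without control rat 4. The median within-diet SD of the members stayed between 0.0893 and 0.117. Centring the arrays moved the unadjusted limma counts over all probe sets to 297 higher and 223 lower, against 223 and 303.

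Differences near 0 changed sign. When 1 rat was left out, Cyp2e1 ran from -0.077 to 0.113, Cyp2j3 from -0.0852 to 0.11, Cyp2f4 from -0.0824 to 0.0257, Cyp2t1 from -0.0056 to 0.0865, Dbp from -0.702 to 0.0183 and Cish from -0.875 to 0.034. Cyp2j3 was 0.0111 after centring, 0.0136 after quantile normalization and 0.035 with array weights, where Cyp2t1 was -0.0331 and Cish 0.394. Rank product calls also rested on single rats in 13 named genes. Cyp3a9, Por, Pgrmc2 and Sult1e1 are given above with their values. Of the others, Ugt2b1 lost its call only without HP rat 2 (0.27), Ephx2 without HP rat 2, HP rat 3 or control rat 3 (0.20 to 0.40), Hlf without control rat 3 or 4 (-0.32 and -0.28) and Tef without control rat 2 or 4 (-0.42 and -0.19) or with the mean of its probe sets (-0.23). Ppargc1a, Hmox1, Sult1a1, Sult1c2 and Slc22a8 lost theirs without 4 or more of the 8 rats, 1 at a time. All of these but Ppargc1a also lost it without the dimmest 25% of probe sets, and Ppargc1a and Slc22a8 with the mean of their probe sets. Over all named genes, 390 values under an alternative kept their direction and their call or lack of a call. A further 51 lost the call, 2 gained it and 19 changed sign, and the cause was not tested. The ranking of measured probe sets alone is not in these counts. With array weights and the replicate block the call counted is that of limma, which called no gene, so no call could be lost there. The 4 arrays per diet and the lack of a background value limit what can be measured in dim probe sets.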
